A study of Mus musculus with 6 samples.

Results

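Back-spliced reads were counted for the circRNAs of 10 host genes chosen by name because their circles have been described repeatedly in mouse and human: Hipk3, Zfp609, Lrp6, Smarca5, Cdyl, Rhobtb3, Foxo3, Ankib1, Hipk2 and Homer1. Every entry of the circRNA table whose host gene was one of these was taken, with Ensembl identifiers turned into symbols. This gave 27 of the 10023 entries, from 9 of the 3981 host genes. No entry of the table used here named Smarca5, an ATPase of ISWI chromatin remodellers, and no entry of another host lay within its span (GRCm38 chromosome 8, 80698507 to 80739497). All libraries came from aortas of male ApoE-/- mice on a C57BL/6 background, so that the controls lacked ApoE too, and lesions in this model are driven by the lack of ApoE together with the diet. From 6 weeks of age the mice were fed an HFD (3 aortas) or a chow diet, which the sample labels call normal diet (3 aortas), for 12 weeks. The tissue was whole aorta. The labels and the study's RNA isolation name RNase R, an enzyme that digests linear RNA, while its library method names depletion of ribosomal RNA, and whether these libraries had one or both is unresolved. The sources do not say whether an aorta is 1 animal or a pool. p-values therefore measure the spread between these aortas. Whether the circles are conserved was not tested with these mouse data.

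A circRNA forms when the donor at the downstream end of an exon is spliced back to the acceptor at the upstream end of the same or an earlier exon. The ring has no free ends, resists exonucleases, and is recognised only by reads that cross the back-splice. Back-splicing is favoured by long introns on either side whose repeats can pair. The circle of Hipk3 is among the most abundant in mammalian cells and has been described as binding several miRNAs, the circle of Zfp609 (ZNF609 in human) was described in myoblasts as one that can be translated, the circle of Homer1 is best known from neurons, and the circle of Foxo3 from ageing heart. In vascular tissue such circles are studied for their part in smooth muscle proliferation and endothelial function.

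The back-splice identifies each circle. The joined sequences of the circles with the most reads are therefore given first, from the transcripts of GENCODE vM21 (GRCm38), 5′ to 3′ on the strand of the gene. Small letters are the last 15 bases of the circle and capitals are the 15 bases to which they are joined.
Hipk3 exon 2: atctcgctactacagGTATGGCCTCACAAG
Hipk2 exon 2: atccagatactaccgGTATGGCCTCACATG
Zfp609 exon 2: gtcaagtctgaaaagCAATGATGTTGTCCA
Ankib1 exons 2 to 5: tgcttcgagctcacgAATGTGAAACATGTT
Lrp6 exons 4 to 7: acagacaaaattgagGCAGGCAGTGGTTAA
Lrp6 exon 2: agatccatcaagtggCGGCCCCTTTGTTGC
Cdyl exons 4 and 5: ctgttaatggaaaagCAAAATAATGTGGTT
Cdyl exon 5: ctgttaatggaaaagGTGGAAAGTATCGTT
Rhobtb3 exons 4 to 8: tctttgaaatacaagAAGAATTACCTTGTA
Rhobtb3 exons 3 to 8: tctttgaaatacaagGACATTTTTGACAGT
The pairs of Cdyl and Rhobtb3 are shown because each pair shares its donor and differs in its acceptor. The Hipk3 and Hipk2 circles are shown together because these kinases are paralogues and the same exon of each is circularised.

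Among these circles the exon 2 circle of Hipk3 had the most reads. Hipk3 encodes a homeodomain-interacting serine/threonine kinase, and its exon 2 circle (mmu_circ_0001052, chromosome 2, 104470749 to 104471847, reverse strand) had 161 back-spliced reads over the 6 aortas, rank 7 of 10023 entries. The circle of exons 2 to 5 of Ankib1, which encodes a RING-between-RING ubiquitin ligase with ankyrin repeats, was next, with 84 reads and rank 28 (mmu_circ_0001311, chromosome 5, 3747021 to 3772787, reverse strand). The exon 2 circle of Zfp609, a zinc finger protein that works with cohesin-associated factors, followed with 30 reads and rank 124 (mmu_circ_0001797, chromosome 9, 65794622 to 65795495, reverse strand). Ranks count the entries with more reads, so entries with equal reads share a rank. The other dominant circles were rarer. That of Lrp6, the Wnt co-receptor, covers exons 4 to 7 (mmu_circ_0001529, chromosome 6, 134506196 to 134513419, reverse strand) and had 16 reads and rank 315. That of Cdyl, a chromodomain corepressor, covers exons 4 and 5 (mmu_circ_0004583, chromosome 13, 35790101 to 35816575, forward strand) and had 12 reads and rank 451. For Rhobtb3 the circle of exons 4 to 8 (mmu_circ_0004789, chromosome 13, 75892906 to 75917847, reverse strand) had 9 reads and rank 609. These 3 lie in the range where the diet comparison has little depth.

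The circles of Hipk2, Foxo3 and Homer1 had at most 5 reads over the 6 aortas. The exon 2 circle of Hipk2, a kinase close to Hipk3, had 5 reads and rank 1174 (mmu_circ_0001468, chromosome 6, 38818230 to 38819313, reverse strand). The exon 3 circle of Foxo3, a forkhead transcription factor, had 2 reads, both in chow diet replicate 1 (mmu_circ_0002207, chromosome 10, 42196466 to 42197901, reverse strand). Homer1, a scaffold of the postsynaptic density, had 3 reads in all for its exons 2 to 5, which the table divides over 2 entries with the same genomic end (chromosome 13, 93356079) and genomic starts 1 base apart, with 2 reads in HFD replicate 3 and 1 in chow diet replicate 2. With 2236 entries at 2 reads, the rank of 3108 for Foxo3 and for the larger Homer1 entry places them among the bulk of the table. By mean SRPBM Foxo3 was at rank 5009, and with entries 1 base apart summed Homer1 was at rank 2027. Together the 27 entries held 376 of 37393 back-spliced reads, or 1.01%, and Hipk3 and Ankib1 held 69.9% of these 376.

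**Figure D1:**
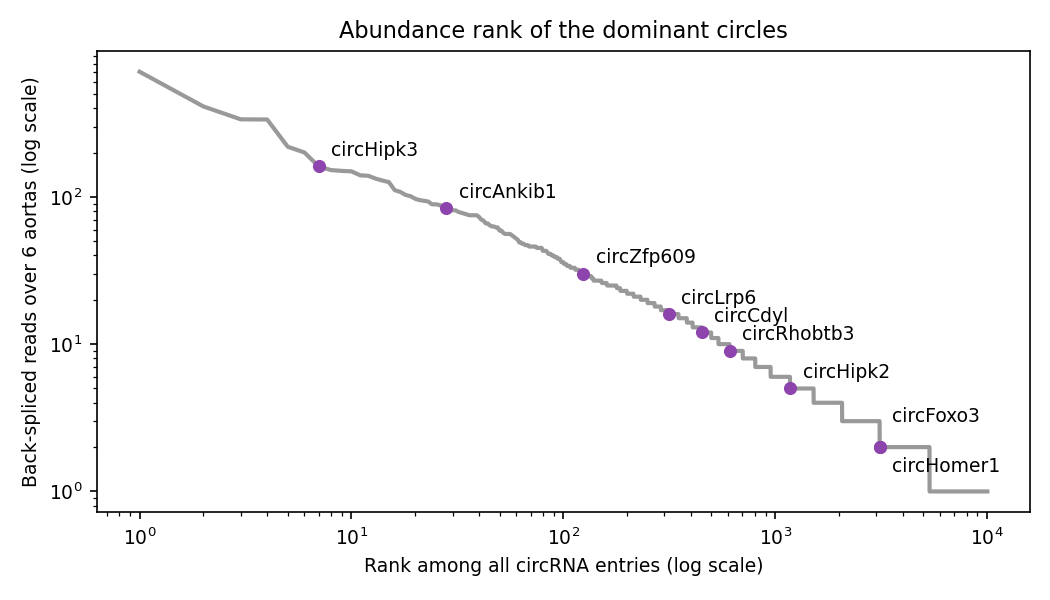
Back-spliced reads over 6 aortas (vertical, log scale) against rank among all 10023 circRNA entries (horizontal, log scale), with the grey line for all entries and points for the dominant circle of each host gene. The points run from the Hipk3 circle at rank 7 with 161 reads to the Foxo3 and Homer1 circles at rank 3108 with 2 reads.

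The 9 host genes differed in how far their reads were gathered in 1 circle. The dominant circle held 94.2% of the 171 reads of Hipk3, 91.3% of the 92 reads of Ankib1 and 88.2% of the 34 reads of Zfp609. In single aortas these shares ran from 86.2% to 100% for Hipk3, from 80.0% to 100% for Ankib1 and from 75.0% to 100% for Zfp609. In every aorta most reads of these genes thus came from 1 circle. The lowest shares of Ankib1 and Zfp609 rest on few reads of the dominant circle, 4 in HFD replicate 2 and 3 in chow diet replicate 3. The minor circles of Hipk3 were a ring of exons 2 to 15 with 4 reads, all in chow diet replicate 3, and rings of exons 4 to 8, 9 to 13 and 5 to 7 with 3, 2 and 1 reads, each from a single chow diet aorta.

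Lrp6 was the gene whose reads were most divided. Of its 35 reads over 6 entries, the circle of exons 4 to 7 held 45.7%, and in single aortas its share ran from 0% to 100%. It held 1 of the 11 Lrp6 reads on the HFD. The circle of exon 2 (mmu_circ_0013120, chromosome 6, 134541652 to 134542045, reverse strand) held another 12 reads, and an entry with the same genomic end and a genomic start 1 base later held 2 more (circRNA7037). The remaining Lrp6 circles of exons 2 to 7, 2 to 5 and 8 to 12 had 2, 2 and 1 reads. Both Cdyl circles end at exon 5, and the shorter one, exon 5 alone (mmu_circ_0000451), had 6 reads against 12. Both Rhobtb3 circles end at exon 8, and the longer one (mmu_circ_0004790) had 7 reads against 9, so neither of them was clearly dominant. Across all entries, 471 pairs of exonic circles had the same genomic end and genomic starts 1 base apart, and 4 of the 27 entries were in such pairs.

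**Figure D2:**
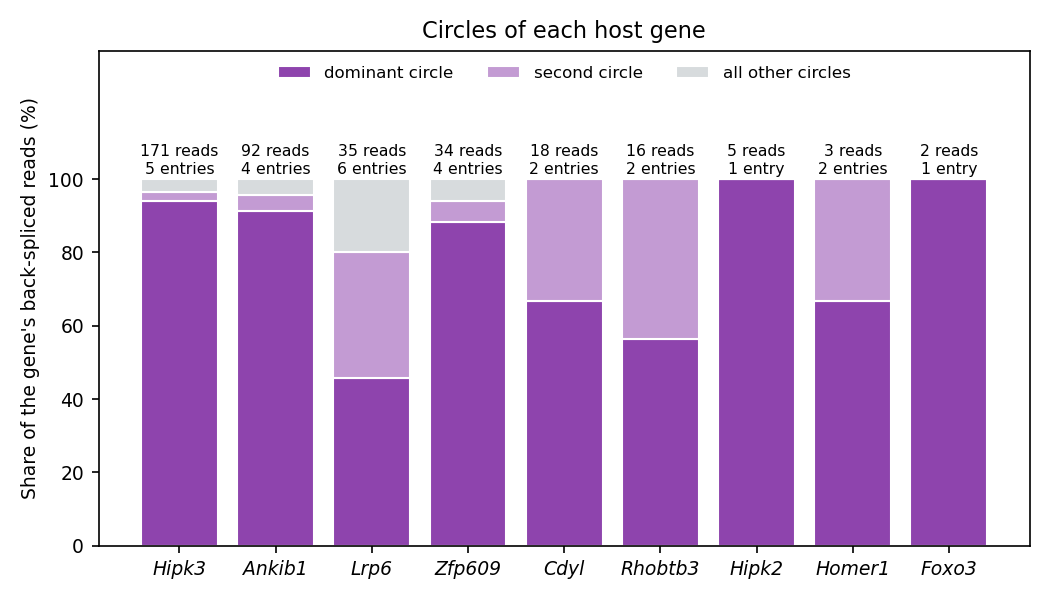
Share of the back-spliced reads of each host gene (vertical, %) held by its dominant circle, its second circle and all its other circles, with the reads and the number of table entries above each bar. The dominant circle holds 94.2% for Hipk3, 91.3% for Ankib1 and 88.2% for Zfp609, but 45.7% for Lrp6.

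All 27 entries matched exon boundaries of the transcript the table names. In 24 both boundaries were exact, and in 3 the lower genomic coordinate lay 1 base inside the exon (circRNA7037 of Lrp6, circRNA9038 of Homer1 and circRNA4456 of Ankib1). None included exon 1, which was the first exon of only 11 of the 8740 annotated exonic entries of other genes. Exon 2 was the first exon of 14 of the 27 entries and of 5 of the 9 dominant circles, beside 28.8% of the 8740 annotated exonic entries of other genes and 45.1% of the 536 of those with at least 10 reads. Single-exon circles were 4 of the 9 dominant circles, beside 10.8% of those 536. The introns that flank the dominant circles were long, with a median of 31970 bases upstream and 24113 downstream, against medians of 14793 and 14106 for those 536. Over all 27 entries the medians were 24597 upstream and 13935 downstream, so the downstream introns were then no longer than in those 536. The longest were upstream of the Cdyl circle (106262 bases) and of the Foxo3 circle (76914 bases), both rare here. These are descriptions of a list chosen by name, in which earlier interest in abundant circles is built in. A catalogue number of the mmu_circ type was carried by 17 of the 27 entries (63.0%), beside 29.8% of all exonic entries.

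**Figure D3:**
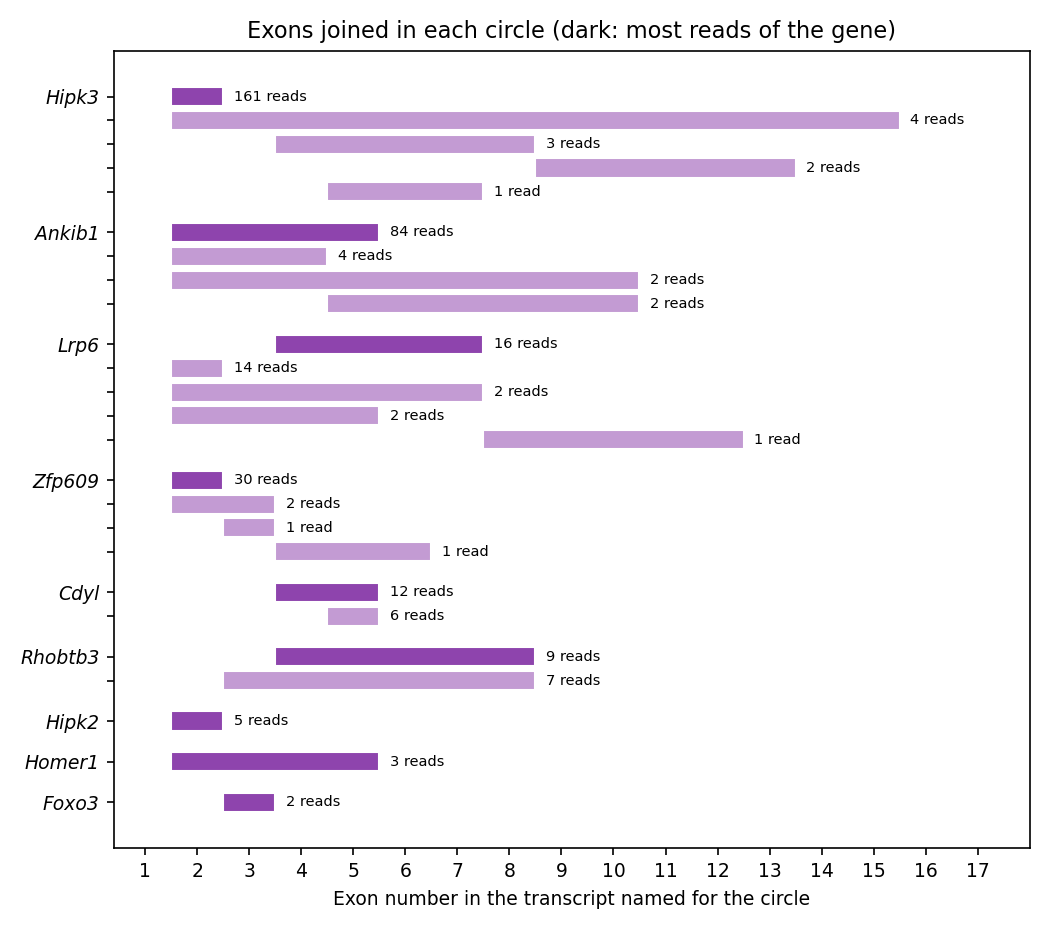
Exons joined in each circle (horizontal, exon number in the transcript that the table names) for each host gene (vertical), with the reads over 6 aortas beside each bar and entries 1 base apart drawn as 1 bar. Dark bars mark the circle with most reads of a gene, and exon 2 is the first exon of the dark bars of Hipk3, Ankib1, Zfp609, Hipk2 and Homer1.

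Among the 9 dominant circles, the 3 with most reads are also those that hold the start codon of their gene, and 4 minor circles of the same genes hold it too. The Hipk3 circle is 1099 nt long, of which 1097 are coding, and its start codon begins at the third base of the circle. The Zfp609 circle is 874 nt long, with 127 nt of 5′ untranslated sequence before 747 coding nt. The Ankib1 circle is 873 nt long, with 83 nt of 5′ untranslated sequence before 790 coding nt. In each of them the frame of the start codon met no stop before the back-splice. Past the junction it ran on for 6 nt in the Zfp609 circle, stop codon included, which gives an open frame of 753 nt. It ran on for 77 nt in the Ankib1 circle (867 nt in all) and for 67 nt in the Hipk3 circle, where the frame of 1164 nt is longer than the ring. Start codons lay within 22.4% of the 536 other circles with at least 10 reads. An open frame is a property of the sequence, and translation was not measured here.

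The Hipk3 and Hipk2 circles are nearly the same size, 1099 and 1084 nt, and 71.9% of their 1047 aligned bases are identical. Across the back-splice, 14 of the first 15 bases and 11 of the last 15 are identical, as the sequences above show. The longest run of identical bases anywhere in the pair is 21 bases, so reads that cross the junction with longer anchors differ between the genes. The 161 reads of Hipk3 against 5 of Hipk2 are counts per junction and need no correction for length.

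Libraries differed in depth: 4694 to 5621 back-spliced reads per HFD aorta and 7142 to 7585 per chow diet aorta. Levels between diets are therefore given as normalized reads, the counts divided by the effective library size (TMM) and multiplied by its mean over the 6 aortas. Sums over gene lists are instead given per 10000 back-spliced reads of the library, without the TMM factors. These factors were 1.04 to 1.13 for the HFD libraries and 0.879 to 0.947 for those of the chow diet, so dividing by them lowers HFD values against chow diet. A count of 3 reads, taken as the smallest that can be told from none, corresponds to 40.7 to 52.0 in the SRPBM that the authors deposited, which covers counting error only. The 27 entries took 0.831%, 0.818% and 1.33% of the back-spliced reads of the 3 HFD libraries, against 0.976%, 1.22% and 0.869% of the 3 from the chow diet, and the diets overlapped. Of the 27 entries, 12 had reads in at least 2 aortas and were tested among the 2564 circRNAs that did. The other 15 had reads in a single aorta. Whole aorta was the labelled tissue, and smooth muscle host genes had circles for 7 of 9 listed markers, with none for Cnn1 and Tagln. Summed over this list there were 18.5 to 32.0 reads per 10000 in the HFD aortas and 43.4 to 68.2 in the chow diet aortas, without overlap. Itga8 alone held 139 of the 169 reads of this list. Without it, a split made after the values were seen, the list had 6.15 to 7.12 against 4.20 to 13.4, and the diets overlapped. The leukocyte list (6 of 7 genes, none for Cd68) had 14.9 to 18.5 and 6.69 to 15.8, and the endothelial list (3 of 6, none for Cdh5, Flt1 and Kdr) had 5.34 to 16.4 and 2.80 to 6.69. The adipocyte list (3 of 5, none for Adipoq and Plin1) had 10.3 to 14.9 and 17.1 to 35.0, without overlap. Of its 71 reads 53 were from Acaca, a fatty acid synthesis gene not limited to adipocytes. Without it, again a split made after the values were seen, the list had 2.13 to 4.10 and 3.96 to 8.03. These ranges overlapped narrowly by library size alone. The TMM factors move them away from each other, so this overlap depends on the scaling. The striated muscle list (3 of 6, none for Neb, Myh4 and Myh6) had 1.78 to 18.5 and 2.80 to 7.91. In these lists too 1 gene held most or much of the reads: Adgre1 39 of 49 (leukocyte), Pecam1 16 of 24 (endothelial) and Ttn 12 of 24 (striated muscle). Without them the ranges were 2.05 to 5.34 and 0 to 5.60 (leukocyte), 1.78 to 4.10 and 0 to 4.01 (endothelial), and 0 to 4.26 and 2.80 to 5.35 (striated muscle). The part of cell composition in the diet values below was not tested, and in whole tissue fewer cells of a type cannot be told apart from less RNA per cell.

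The Hipk3 circle had nearly the same mean level on both diets. Its reads numbered 18, 22 and 31 in the HFD libraries, against 31, 34 and 25 in those of the chow diet, here and below in the order of replicates 1 to 3. After normalization these were 21.0, 22.3 and 37.5 against 28.6, 31.0 and 21.7, with means (± SD, n = 3 each) of 26.9 ± 9.2 for HFD and 27.1 ± 4.8 for chow diet. HFD replicate 3 was the highest of all 6 aortas and HFD replicate 1 the lowest. edgeR put the log2 fold change of HFD against chow diet at -0.013 with a standard error of 0.33 (adjusted p = 0.98), and its 95% interval ran from -0.67 to 0.64. The interval thus leaves out a doubling or halving, which would be 1 or -1 on the log2 scale, but not smaller changes, and the sign of the value turned with library size alone (0.21) and in DESeq2 (0.18). Over all 2564 circRNAs the median of this value was -0.18 with TMM and 0.041 with library size alone, a shift larger than the value itself. Summed over its 5 entries, Hipk3 had 26.8 ± 7.6 and 30.0 ± 4.7 normalized reads (SD, n = 3 each).

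For the Ankib1 circle the reads were 9, 4 and 13 with HFD, against 16, 22 and 20 with chow diet. Normalized, these were 10.5, 4.06 and 15.7 against 14.8, 20.1 and 17.4. HFD replicate 3 lay above the lowest chow diet aorta, while the other HFD aortas lay below all 3. With a log2 fold change of -0.80 (edgeR, standard error 0.52, 95% interval -1.82 to 0.23, adjusted p = 0.58), the difference did not pass the test. Its value was negative in all 15 alternative fits, from -1.19 to -0.47. The sum of the 4 Ankib1 entries gave -0.70 on the same scale (edgeR, standard error 0.45, adjusted p = 0.67). Without HFD replicate 3 that sum gave -1.16 and met the criteria described next, with an unadjusted p of 0.028 and adjusted p = 0.79, beside 85 of 2029 host genes called in that fit. Without HFD replicate 2 it gave -0.25 (adjusted p = 0.96).

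circRNAs were called at the criteria of the study, a log2 fold change beyond 1 in either direction with p under 0.05 before adjustment. edgeR called 4.06% of all 2564 circRNAs tested (2.77% lower and 1.29% higher on the HFD), and 1 of the 12 tested here, lower on the HFD. An adjusted p under 0.05 was reached by 0 of the 12, beside 0.156% of the 2564. The circle called was that of Lrp6 exons 4 to 7, with 1, 0 and 0 reads after HFD against 6, 6 and 3 after chow diet. Normalized, it had 1.16, 0 and 0 against 5.54, 5.47 and 2.61 reads. All chow diet aortas lay above all HFD aortas. edgeR gave a log2 fold change of -3.21 (standard error 1.49), an unadjusted p of 0.031 and adjusted p = 0.58. The fold rests on 1 read in the HFD group: by reads alone, the chow diet level was 12.0 times that of the HFD, with an exact 95% counting interval of 1.85 to 507. The call was lost without HFD replicate 2 (log2 fold change -2.76), HFD replicate 3 (-2.73), chow diet replicate 1 (-3.06) or chow diet replicate 2 (-3.09), in DESeq2 (-3.28) and with the replicate number as a block (-3.39). Without HFD replicate 1, which held the only HFD read, the value was -5.25, and limma on log2 SRPBM gave -2.17, both still called. The direction was the same in all 15 alternative fits, and the adjusted p in them lay between 0.44 and 1.00.

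The other Lrp6 circles gave no call. Reads of the exon 2 circle were 0, 3 and 2 for HFD against 0, 7 and 0 for chow diet, and its 1-base neighbour had 2 reads in HFD replicate 1. Its log2 fold change of -0.19 (standard error 1.41, 95% interval -2.96 to 2.58) turned to 0.33 once both entries were summed. All its chow diet reads came from chow diet replicate 2, and without that aorta the value was 3.94 (adjusted p = 0.54 from edgeR). Over all 6 entries, Lrp6 had 3.66, 3.12 and 5.73 normalized reads with HFD and 7.13, 12.3 and 2.58 with chow diet. The groups overlapped, with chow diet replicate 3 the lowest of the 6. For this sum edgeR gave a log2 fold change of -0.79 with a standard error of 0.73 (adjusted p = 0.91), which was -0.23 without chow diet replicate 2. The difference between the circles of exons 4 to 7 and of exon 2 in their response to the diet was not tested.

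Zfp609 was the member whose dominant circle was higher on the HFD without overlap. Its reads were 7, 5 and 6 with HFD, against 4, 5 and 3 with chow diet. Normalized, these were 8.15, 5.07 and 7.26 against 3.69, 4.56 and 2.61, or 6.83 ± 1.58 and 3.62 ± 0.98 (SD, n = 3 each). The raw reads touched at 5, and the groups were apart only after scaling to depth. The edgeR estimate, a log2 fold change of 0.89 (standard error 0.90, 95% interval -0.88 to 2.66, adjusted p = 0.95), fell short of the criteria. It was positive in all 15 alternative fits, from 0.70 to 1.13. Normalized reads did not overlap between the diets for 2 of the 12 circles, the Lrp6 one (lower) and the Zfp609 one (higher), beside 6.67% of all 2564, of which 4.13% of the 2564 were lower and 2.54% higher. In a two-sided exact permutation test each of these gave p = 0.1, the smallest that 3 aortas against 3 allow, and 0.35 after Benjamini-Hochberg adjustment over 7 dominant circles.

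The remaining circles were too shallow for the diet to be compared closely. The Cdyl circle of exons 4 and 5 had 0, 3 and 2 reads against 4, 3 and 0 (HFD against chow diet), with a log2 fold change of -0.20 and a 95% interval from -2.97 to 2.57. The Cdyl circle of exon 5 alone had 0, 2 and 1 against 2, 1 and 0 reads. In the same aortas, HFD replicate 1 and chow diet replicate 3, both Cdyl circles were at 0. The Rhobtb3 circles of exons 4 to 8 had 0, 2 and 1 against 1, 2 and 3 reads, and those of exons 3 to 8 had 1, 0 and 1 against 1, 1 and 3. No aorta exceeded the floor of 3 reads for either, so no fold is given. The Hipk2 circle had 0, 4 and 0 against 0, 0 and 1 reads, of which the 4 came from HFD replicate 2 alone.

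**Figure D4:**
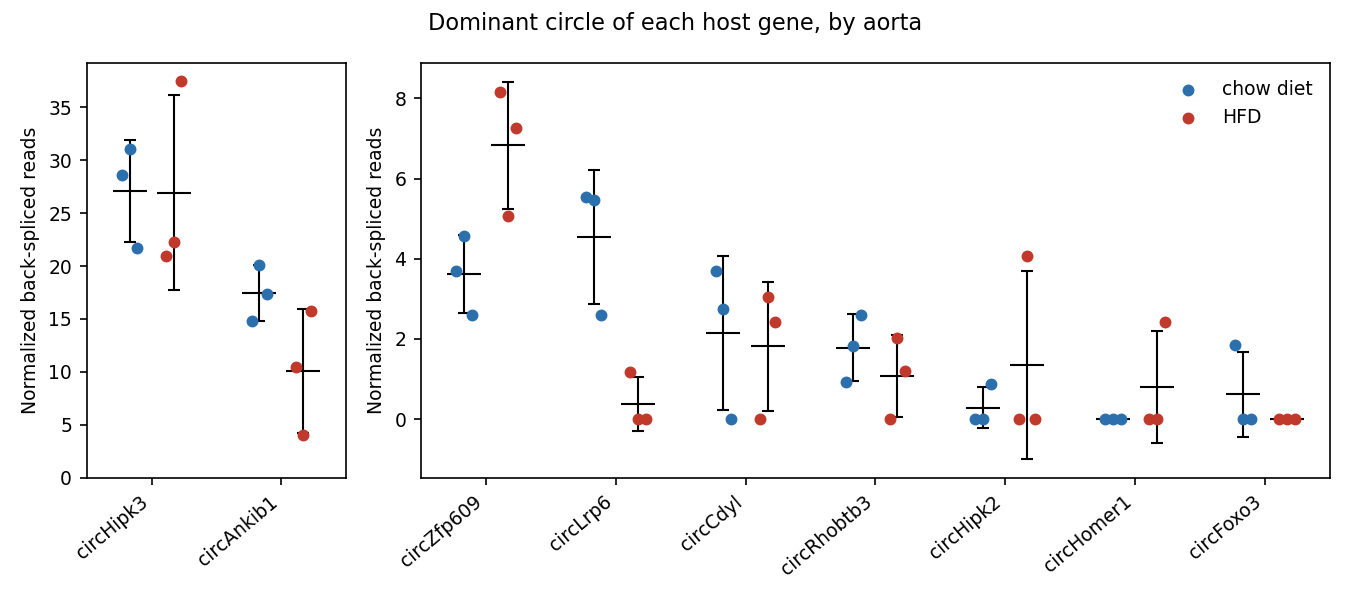
Normalized back-spliced reads (vertical) of the dominant circle of each host gene in each aorta, with points for single aortas, horizontal lines for the mean and whiskers for the SD of 3 aortas per diet. The panels differ in scale, and the chow diet and HFD points are apart for the Lrp6 and Zfp609 circles and overlap for the others.

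In order of mean level over the 6 aortas, the dominant circles ran Hipk3, Ankib1, Zfp609, Lrp6, Cdyl, Rhobtb3, Hipk2, Homer1 and Foxo3. The lowest aorta for Hipk3 (21.0 normalized reads) lay above the highest for Ankib1 (20.1), and Hipk3 was higher in 6 of 6 aortas. Every other pair of neighbours in this order overlapped in range. Ankib1 was above Zfp609 in 5 of 6 aortas, the exception being HFD replicate 2. Zfp609 was above Lrp6 in all 3 HFD aortas, below it in chow diet replicates 1 and 2 and equal to it in chow diet replicate 3. With 1 Lrp6 read on the HFD, its place among the rarer circles there could not be told.

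**Figure D5:**
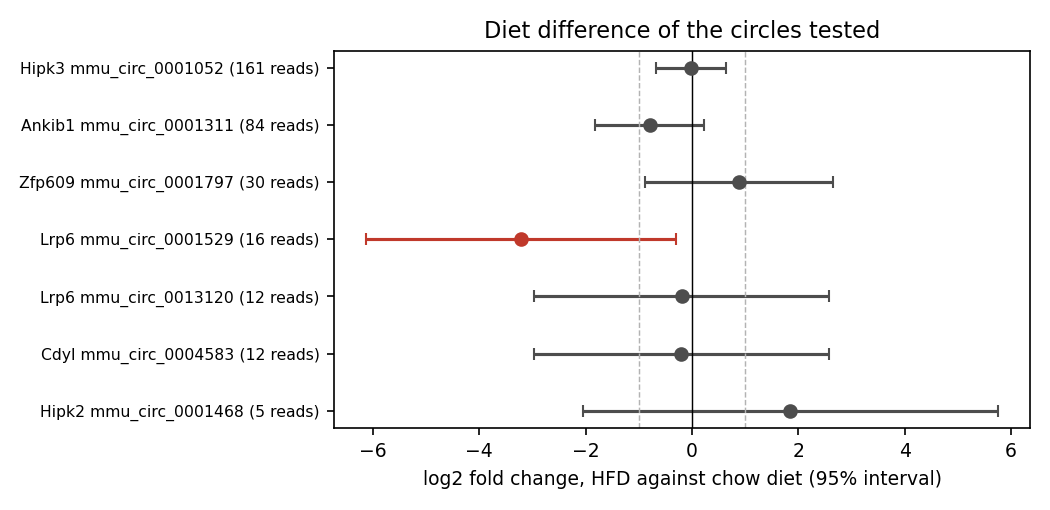
log2 fold change of HFD against chow diet (horizontal) with its 95% interval from edgeR for the 7 tested circles with more than 3 reads in an aorta, in order of their reads over 6 aortas, with dashed lines at -1 and 1. The interval is narrowest for the Hipk3 circle (-0.67 to 0.64), and of these 7 only the Lrp6 circle of exons 4 to 7 (red) met the criteria.

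Across the 12 circles tested the median log2 fold change was -0.19, beside -0.18 for all 2564, and 8 of the 12 were negative, beside 1351 of the 2564. With library size alone 6 of the 12 were negative. With the reads of each host gene summed, edgeR tested 8 of the 9 genes. It called 0 of them, and 0 had p under 0.05 before adjustment, beside 4.46% called of all 2240 host genes (2.77% lower and 1.70% higher on the HFD). These are 62 lower and 38 higher, against 42 lower and 47 higher with library size alone. DESeq2 called 0 of the 8, beside 34 of 2240. Gene sums overlapped between the diets for all 8, beside 5.89% of the 2240 that were lower and 3.66% that were higher on the HFD without overlap. Their median was -0.10, beside -0.17 for all host genes. Pearson's r with the Hipk3 circle over the 6 aortas, on log2 normalized counts, was highest for the circle of Tcf20 (mmu_circ_0000629, r = 0.81) among the 18 circles of other genes with at least 100 reads. Those of Mettl9 (r = 0.34) and Slc8a1 (r = 0.26) came next. Libraries and depth are shared by these points, and with 6 aortas the values only describe them.

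The listed relatives of these host genes had more entries than the members but fewer reads. Of 18 listed paralogues, 12 had circles, in 36 entries with 119 reads against 27 entries with 376, and Arih1, a RING-between-RING ligase like Ankib1, held 58 of these. Hipk1, of the same kinase family as Hipk2 and Hipk3, had 1 read, and Zfp608, the relative of Zfp609, had 1. Of the Lrp6 and Smarca5 relatives, Lrp5 had 11 reads, Smarca1 had 1, Smarca2 had 13 and Smarca4 had 8. None was found for Hipk4, Cdy1, Foxo4, Foxo6, Homer2 and Homer3. Per 10000 back-spliced reads, by library size alone, the paralogues summed to 36.2 to 51.3 in the HFD aortas and to 19.8 to 30.8 with chow diet, without overlap. The TMM factors lower HFD values and raise those of chow diet, so this separation depends on the scaling. Without Arih1, left out after the values were seen, the ranges of 19.6 to 30.8 and 3.96 to 16.1 did not overlap by library size alone either. Over the 9 paralogue circles tested the median log2 fold change was 1.05, beside -0.18 for all 2564. Of these 9, edgeR called 1 higher and 0 lower on the HFD, beside 1.29% and 2.77% of all 2564. It was a circle of Foxo1 (circRNA7092), named after its values were seen, with 4, 0 and 2 reads after HFD and 0 in each chow diet library (adjusted p = 0.58). This circle passed the filter of 2 aortas through the HFD group alone, so nothing is concluded from its call. The sum of both Foxo1 circles, 6, 0 and 6 against 0, 1 and 2 reads, was not called.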

How the data were processed

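Total RNA came from 6 aortas. The labels and the study's RNA isolation name RNase R and its library method names ribosomal RNA depletion, and which applies to the circRNA table is not settled by the sources used here. The authors used Cutadapt for trimming, TopHat-Fusion for back-splices, and CIRCexplorer and CIRI for circRNA assembly. Versions, the genome build and the way the callers were combined are not given in the sources used here. The deposited counts are back-spliced reads per circRNA and aorta. The deposited signal (SRPBM) is each count divided by a depth per library and scaled. The table also holds the authors' own fold changes, p-values and q-values, which were not used. Linear mRNA was not used here.

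The build was taken as GRCm38. Of the exonic entries, 8767 (97.5%) matched exons of the named GENCODE vM21 transcript, exactly at the upper genomic coordinate and within 1 base at the lower. Of these, 7909 were exact at the lower coordinate too. Table rows with Ensembl identifiers (1224, of which 3 belong here) were all matched to symbols. Counts were tested over all circRNAs with reads in at least 2 aortas with edgeR 4.0.16 (TMM, glmQLFit, glmQLFTest, R 4.3.3) and no covariate, called at a log2 fold change beyond 1 in either direction with p under 0.05 before adjustment, with Benjamini-Hochberg adjustment over all circRNAs tested. Standard errors were computed here from edgeR's F statistic (the absolute log2 fold change over its square root), and intervals from them with the quantile for the total degrees of freedom. Host gene sums were tested the same way. Exact permutation tests used scipy 1.17.1. Alternatives were DESeq2 1.42.0, limma 3.58.1 (trend) on log2 SRPBM plus 13.6, other scalings and filters, summed entries, a replicate block and each aorta left out. The script was tested on simulated counts with known changes. Replicate libraries were compared with chi-square tests of their counts and were not alike within counting error, with values of 2.50 to 2.76 per degree of freedom. The members, lists and tests were chosen with earlier results of these data known. The circles described are the dominant circle of each gene, others with at least 10 reads or a call, and, briefly, the minor ones.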

Additional observations from a re-analysis of the deposited data

How the results depend on the processing

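The number of circRNAs called over the whole table was 104 with edgeR and TMM, 49 with at least 10 reads, 23 in DESeq2, 30 with the replicate number as a block and 57 to 117 with 1 aorta left out. Of the 104, 33 were higher and 71 lower on the HFD, against 40 and 43 with library size alone and 12 and 11 in DESeq2. For the circles of the 10 host genes the single call, the Lrp6 circle of exons 4 to 7, became 0 in DESeq2 and with the block, and 0 to 1 with 1 aorta left out. Host gene sums gave 0 to 1 calls with 1 aorta left out, the 1 being Ankib1 without HFD replicate 3, and 0 otherwise, beside 49 to 118 calls over all host genes in the fits with 1 aorta left out. The block joins aortas that share a number and no more: departures from the mean of the diet, compared between aortas with the same number, correlated at -0.14, -0.15 and -0.045 over 200 circRNAs.

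The direction turned for values near 0. For the Hipk3 circle the log2 fold change was 0.21 with library size alone, 0.18 in DESeq2, 0.042 with at least 10 reads, 0.042 with entries 1 base apart summed and -0.26 to 0.15 with 1 aorta left out. For the Hipk3 sum it was 0.036 with library size alone, 0.022 in DESeq2 and -0.36 to 0.091 with 1 aorta left out. For the Cdyl circle it was 0.022 with library size alone and -0.80 to 0.37 with 1 aorta left out. For the Cdyl sum it was 0.16 with library size alone, 0.15 in DESeq2, 0.069 with at least 10 reads, 0.081 with the block and -0.64 to 0.65 with 1 aorta left out. For the Lrp6 exon 2 circle it was 0.34 in limma, 0.33 with entries summed, 0.55 with the block and -0.80 to 3.94 with 1 aorta left out. The cause was not tested. The dominant circle of each of the 9 genes was the same by mean SRPBM, with entries summed and among exonic entries alone. Depth limits what can be seen: 21 of the 27 entries had under 10 reads over the 6 aortas.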

Other observations

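Other host genes whose circles are widely described gave circles too. Of 22 listed genes, 19 had any, in 95 entries with 604 reads, and Eif3j1, Ccnb1 and Cdr1os had none. Slc8a1, the sodium-calcium exchanger, held 171 reads, the same number as Hipk3, followed by Ube3a, a ubiquitin ligase, with 73 and by Fndc3b with 58. Per 10000 back-spliced reads, by library size alone, the list had 166 to 219 with HFD and 120 to 171 with chow diet, which overlapped. Without Slc8a1, left out after the values were seen, it had 122.8 to 133 and 98.0 to 122.6, apart by a narrow margin. The TMM factors lower HFD values and raise those of chow diet, so this separation depends on the scaling. With reads summed per gene, the median log2 fold change of the 18 genes tested was 0.41, beside -0.17 for all host genes. Of its 29 circles tested, with a median of 0.18, edgeR called 0, and 1 had p under 0.05 before adjustment. edgeR called 2 of the 18 genes lower and 0 higher on the HFD, beside 2.77% and 1.70% of all 2240 host genes. Ptk2, the focal adhesion kinase gene, had 0, 0 and 2 reads with HFD, against 10, 2 and 9 with chow diet (log2 fold change -2.85, standard error 1.13, adjusted p = 0.67), spread over 10 entries. Camsap1, which encodes a protein of microtubule minus ends, had 1, 3 and 3 against 9, 9 and 9 reads (log2 fold change -1.58, standard error 0.79, adjusted p = 0.67). Both were named after their values were seen.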
